A study of Oryza sativa with 6 samples.

Results

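The H3K27me3 library of this rice series was described through its list of peaks, the regions in which immunoprecipitated reads piled up above background. All 12959 peaks of that list were used, out of 82347 peaks in the lists of 6 histone modifications. The H3K27me3 library and the libraries for H3K4ac, H3K9ac, H3K27ac, H3K9me1 and H3K9me3 all came from greenhouse plants of the cultivar Nipponbare at an age of 2 weeks, and no treatment or mutation is named for any of them. The labels give the source as leaves and the tissue as seedling, and the paper's methods name seedlings as the material for ChIP-seq. No source used here says how many plants went into a library. Each mark had 1 library, so no value below has a replicate check and no test between marks was made. The identity of the mark rests on the label of the antibody. For each peak the list gives a position and a score of the peak caller MACS 1.4. That the score is on this tool's usual scale, a negative logarithm of a p-value, was taken from its name alone, and such a score depends on read depth and peak width as well as on enrichment. The read depth is unknown, the build of the lists is not named for them, and positions are given as listed on 12 chromosomes.

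H3K27me3 is set by Polycomb repressive complex 2, which trimethylates lysine 27 of histone H3, and it is known for keeping genes silent through development. In plants the mark typically lies along the bodies and promoters of silent genes, many of them developmental regulators, and a marked region often ends near the borders of a gene. Heterochromatin around plant centromeres carries mainly methylation at H3K9 instead. The landscape below asks where along the chromosomes the H3K27me3 peaks lay, how wide they were and how far they gathered into domains.

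H3K27me3 peaks were found along all 12 chromosomes and covered 25.8 Mb, or 6.93% of the chromosomes, whose lengths were taken as the end of the last listed peak of any mark. The mean density was 34.7 peaks per Mb. Chromosome 11 was the most densely marked, with 40.5 peaks per Mb and 8.18% of its length covered. Chromosome 5 was the least, with 31.2 peaks per Mb and 5.89% covered. The other chromosomes lay between 6.30% (chromosome 4) and 7.44% (chromosome 1), so the highest and the lowest chromosome differed by a factor of 1.39. The peaks of chromosome 11 had the lowest median score of all chromosomes (193), and those of chromosome 1 the highest (235). The median peak width differed little, with 1407 bp on chromosome 5 and 1600 bp on chromosome 1 at the ends of the range.

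In 741 complete bins of 500 kb the median was 17 peaks, with quartiles of 13 and 22 and a highest value of 47. The covered length per bin had a median of 33.3 kb (exact binomial 95% interval 31.8 to 34.5 kb, for the spread of bins only) and reached 93.0 kb, or 18.6% of a bin. The 74 richest bins held 19.2% of the covered length and the 74 poorest held 2.36%. The variance of the number of peaks per bin was 2.74 times the mean. Bins with many peaks were also those with more covered length (Spearman's rho 0.876 over 741 bins), while the mean width of the peaks in a bin was only weakly related to their number (rho 0.195 over 738 bins with a peak). Adjacent bins resembled each other moderately (rho 0.321 over 729 pairs), and bins 10 places apart did not (rho 0.00601 over 621 pairs). Bins are not independent replicates, and these coefficients are descriptions.

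**Figure D1:**
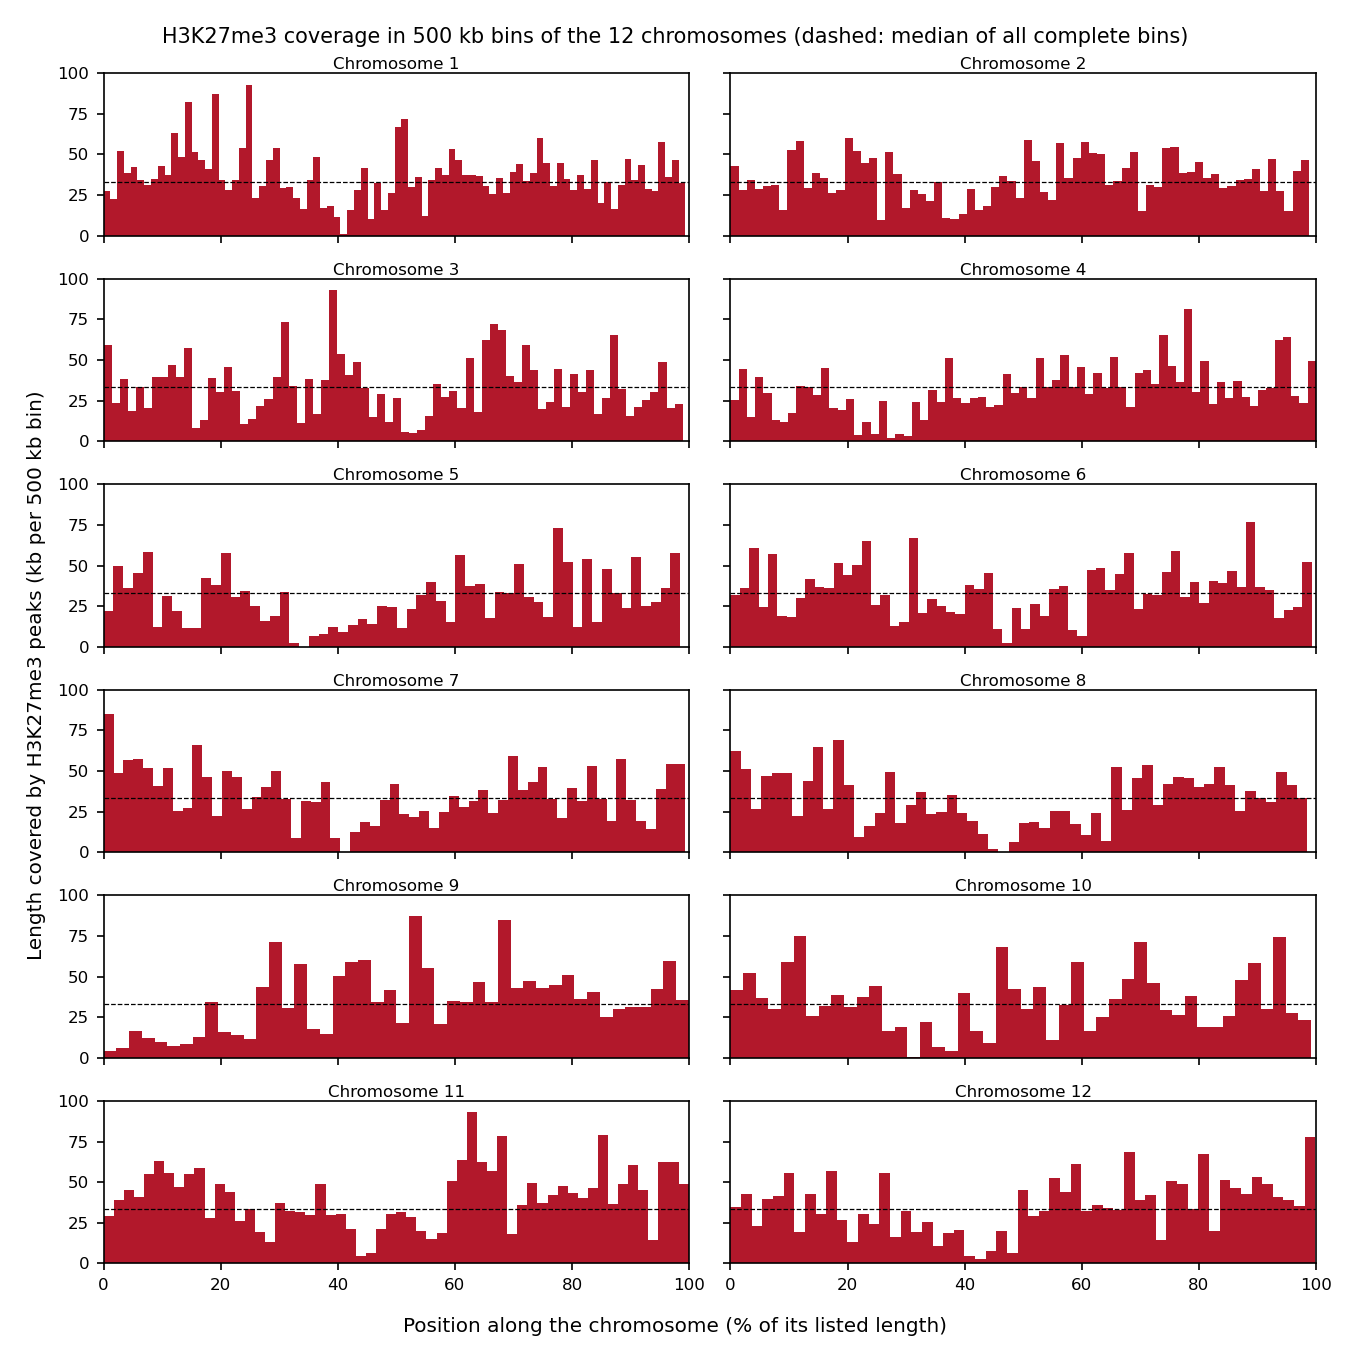
Length covered by H3K27me3 peaks (kb per complete 500 kb bin) against the position along each of the 12 chromosomes, as a percentage of the listed length, with the median of all complete bins as a dashed line. Most chromosomes have a trough near the middle, chromosome 9 has it at its start, and the tallest bars reach about 93.0 kb.

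The mark thinned out toward the middle of most chromosomes. After each chromosome had been divided into 10 segments of equal length, H3K27me3 covered 4.75% of the fifth segments and 5.24% of the fourth, against 8.21% of the eighth, 7.36% of the first and 7.70% of the last. In 10 of the 12 chromosomes the least covered segment was the fourth, the fifth or the sixth. The exceptions were chromosome 4, on which the third segment was covered to 2.14%, and chromosome 9, on which the first segment was covered to 2.06% and the second to 2.89%. The lowest value of all was 1.75% in the fifth segment of chromosome 8, and the highest was 13.2% in the seventh segment of chromosome 11. H3K4ac peaks, which the paper treats as an active mark, were also sparsest in the fifth segments (6.39%) but had their highest coverage, 11.8%, in the last, where H3K27me3 was below its value in the eighth.

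The 5 richest bins lay on 4 chromosomes. Chromosome 11 from 18000001 to 18500000 held 31 peaks over 92975 bp, and chromosome 3 from 14000001 to 14500000 held 36 peaks over 92950 bp. Chromosome 1 had 30 peaks over 92665 bp between 10500001 and 11000000 and 36 peaks over 87027 bp between 8000001 and 8500000. On chromosome 9, 32 peaks covered 87146 bp between 12000001 and 12500000. In these 5 bins the mean peak widths were between 2417 and 3089 bp, against a mean of 1994 bp over all peaks. This follows in part from choosing bins by covered length, which rises with both the number and the width of peaks. Covered length and mean width had a rho of 0.601 over the 738 bins with a peak. The bin with most peaks, on chromosome 11 from 19500001 to 20000000, held 47 peaks of a mean width of only 1664 bp and covered 78227 bp. Acetylation differed between these places. The leading bin of chromosome 11 had 15 H3K4ac and 13 H3K9ac peaks, whereas the bin of chromosome 1 that starts at 8000001 had 46 and 48, compared with means of 33.9 and 35.7 over all complete bins. The others of the 5 richest bins had between 22 and 37 H3K4ac and between 28 and 39 H3K9ac peaks.

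Only 3 of the 741 bins had no H3K27me3 peak, a share of 0.405% (95% Wilson interval 0.138 to 1.18%, counting error only). They were chromosome 5 from 10000001 to 10500000, chromosome 7 from 12000001 to 12500000 and chromosome 8 from 13000001 to 13500000. Chromosome 10 from 7000001 to 7500000 followed with 1 peak of 518 bp, and chromosome 1 from 17500001 to 18000000 with 1 peak of 996 bp. In all, 11 bins had a covered length under 10% of the median bin. They lay on 8 chromosomes, and the longest run on each was 1 or 2 bins long and lay between 26.8% and 48.0% of the way along the chromosome. On chromosome 4 there were low bins from 9500001 to 10000000 (1 peak) and from 10500001 to 11000000 (3 peaks). Other low bins lay on chromosome 6 from 14500001 to 15000000 (1 peak) and on chromosome 12 from 11500001 to 12000000 (2 peaks). Runs of 2 bins were found on chromosome 5 from 9500001 to 10500000 and on chromosome 8 from 12500001 to 13500000, each with 3 peaks in all. The longest stretch without any H3K27me3 peak was 1171 kb, on chromosome 5 from 9644379 to 10815820, and the next was 624 kb on chromosome 8 from 12979575 to 13603238.

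These low bins were not empty of the other marks. They had a median of 1 H3K27me3 peak (0 to 3) against 18 in the other 730 bins, while H3K4ac had a median of 15 (3 to 37) against 33.5 and H3K9ac a median of 12 (3 to 35) against 36. H3K27ac had a median of 5 against 12 and H3K9me1 of 4 against 7, while H3K9me3 had a median of 4 peaks in both. In the bins without an H3K27me3 peak, H3K9me3 peaks covered 26.8 kb on chromosome 5, 3.06 kb on chromosome 7 and 10.8 kb on chromosome 8, against 11.2 kb in an average bin. The bin of chromosome 7 held few peaks of any list, with 3 H3K4ac, 3 H3K9ac, 2 H3K27ac, 3 H3K9me1 and 1 H3K9me3 peaks. The low bin of chromosome 1 had 37 H3K4ac and 35 H3K9ac peaks, close to the average bin. Over all 741 bins the covered length of H3K27me3 had a Spearman's rho of 0.214 with H3K9ac, 0.174 with H3K4ac, 0.0738 with H3K27ac, -0.0296 with H3K9me1 and -0.0920 with H3K9me3. The bins share the reference and the mappability of the reads, which were not analysed here, and no relation is drawn from these weak coefficients.

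H3K27me3 peaks varied widely in width. The median was 1521 bp (exact binomial 95% interval 1499 to 1545 bp), the quartiles were 942 and 2508 bp, and the range was 293 to 8978 bp. The upper quartile was 2.66 times the lower, a wider relative spread than in the other lists, where that ratio was at most 1.98 (H3K9me3). This difference was not tested. A small part of the list held much of the mark. The 3088 widest peaks, 23.8% of the list, accounted for 50% of the summed peak width, and the 763 peaks wider than 5 kb (5.89%) for 18.6%. At the other end, 398 peaks of at most 500 bp held 0.688% of the covered length.

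The score was higher in wider peaks up to about 5 kb and lower again beyond. Peaks of at most 500 bp had a median score of 57.6, and 95.2% of them were under 100. The median was 251 for peaks of 1 to 2 kb, 468 for those of 4 to 5 kb, 276 for those of 6 to 7 kb and 81.1 for the 51 peaks wider than 8 kb, of which 62.7% were under 100. Over the 12196 peaks of up to 5 kb the rho of width and score was 0.653, and over the 763 wider ones it was -0.509. The 1296 peaks of highest score had a median width of 2537 bp (quartiles 1988 and 3397 bp), wide for this list but short of the widest classes. The highest score, 1851.84, belonged to a peak of 2241 bp on chromosome 1 from 3123460 to 3125700. The next was 1592.23 for a peak of 1618 bp on chromosome 7 from 5519469 to 5521086, followed by chromosome 9 from 17132035 to 17134903 (1575.14), chromosome 8 from 24567438 to 24568808 (1543.41) and chromosome 5 from 21197463 to 21199448 (1527.35). The widest peaks stood near the bottom of the list by score. They were 8978 bp on chromosome 7 from 10351740 to 10360717 (score 69.68, rank 11462), 8932 bp on chromosome 7 from 5402547 to 5411478 (74.48), 8888 bp on chromosome 3 from 29231566 to 29240453 (68.52), 8868 bp on chromosome 4 from 31900144 to 31909011 (50.53) and 8800 bp on chromosome 8 from 4643198 to 4651997 (65.87). None of these 5 had another peak within 5 kb.

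**Figure D2:**
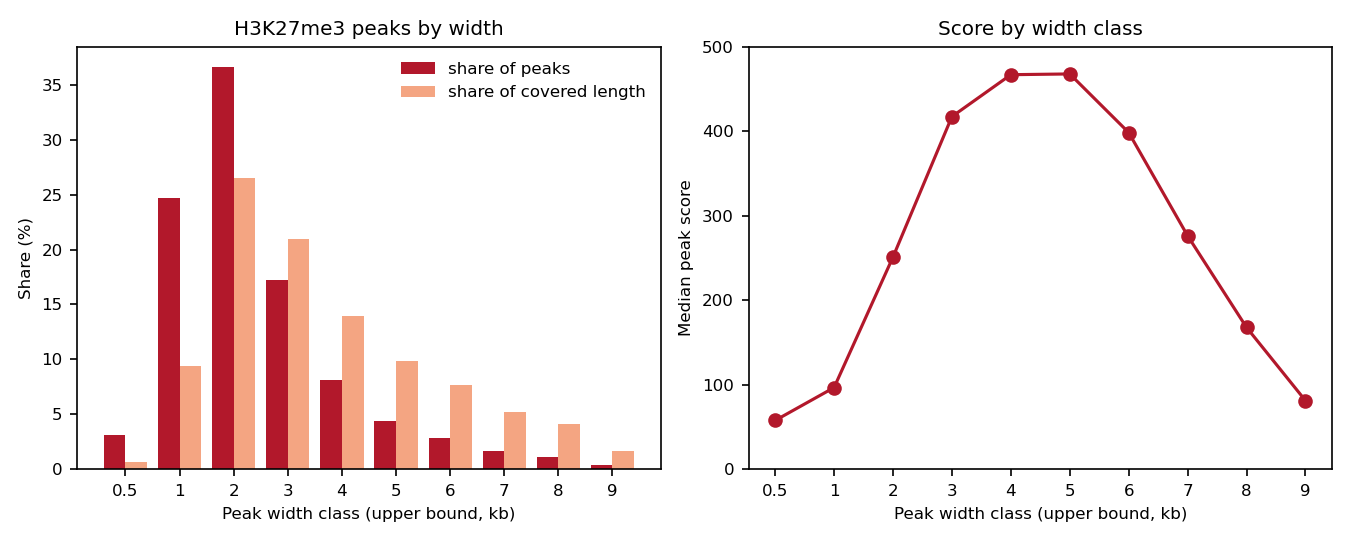
Left, share of the 12959 H3K27me3 peaks and of their summed width (%) in each width class, labelled by its upper bound in kb; right, median peak score of the same classes. The score peaks at 468 in the class of 4 to 5 kb and falls to 81.1 in the class of 8 to 9 kb.

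To see how far the peaks gather, the gap from the end of each peak to the start of the next on the same chromosome was measured. The median of 12947 gaps was 12821 bp (exact binomial 95% interval 12444 to 13304 bp), with quartiles of 4286 and 33856 bp. Very short gaps were frequent. There were 578 gaps under 200 bp and 1362 under 1 kb, or 10.5% of all, and the shortest gap was 1 bp. Per kb of gap length there were 568 gaps between 1 and 2 kb, 496 between 2 and 3 kb, 593 between 3 and 4 kb and 639 between 4 and 5 kb, just inside the joining distance used below. Between 5 and 10 kb, outside that distance, there were 396 per kb. Among gaps under 5 kb, those of 2 to 3 kb were thus the sparsest. Peaks on either side of a short gap had lower scores than others. The lower score of both had a median of 88.2 next to gaps under 200 bp and of 135 next to gaps of 5 to 10 kb, and the higher score of 226 and 410.

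**Figure D3:**
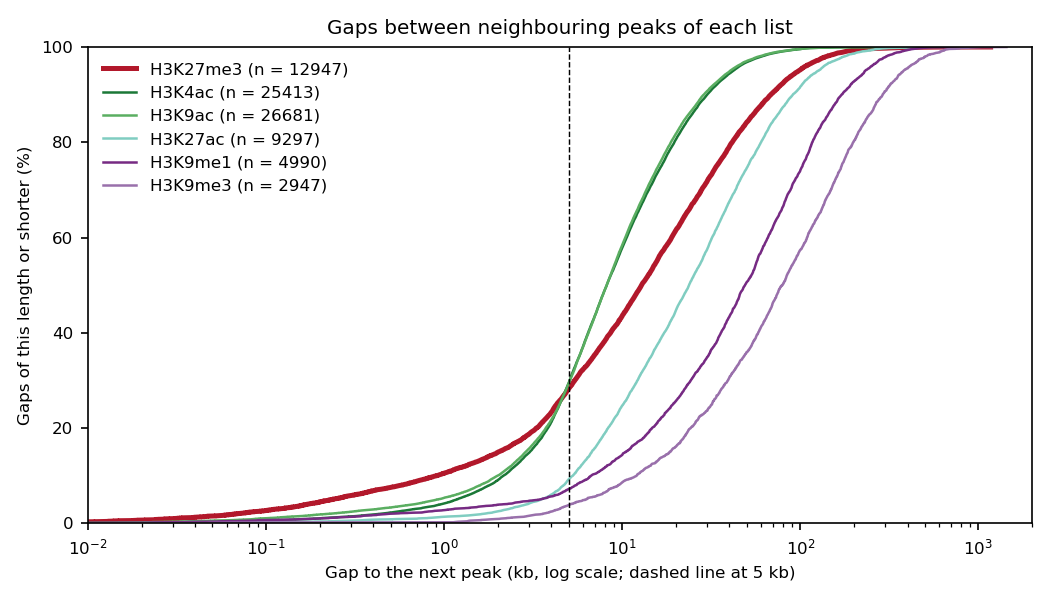
Cumulative share of the gaps (%) between neighbouring peaks against gap length (kb, log scale) for the 6 lists, with 5 kb as a dashed line. The H3K27me3 curve lies above the others at gaps under 1 kb (10.5%), meets those of H3K4ac and H3K9ac near 5 kb and then runs below them.

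Joining all H3K27me3 peaks less than 5 kb apart gave 9301 domains. Of these, 6509 were single peaks and 2792 held at least 2 peaks. The joined ones took in 6450 peaks, 49.8% of the list (95% Wilson interval 48.9 to 50.6%, counting error only). Peaks of a domain are joined together and are not independent, so this interval is too narrow. Most were small, with 2145 of 2 peaks, 489 of 3 and 113 of 4, and only 45 held 5 peaks or more. The median span of the joined domains was 6262 bp (exact binomial 95% interval 6022 to 6439 bp), 611 domains spanned over 10 kb and 63 over 20 kb. Together the joined domains spanned 20.2 Mb, of which 62.8% lay in peaks and 7.49 Mb in the gaps between them. The share of peaks in joined domains was similar along the genome, from 45.9% on chromosome 4 to 53.4% on chromosome 11. It depended on the distance and on the low-scoring peaks, with 28.7% at a joining distance of 2 kb, 68.1% at 10 kb and 33.7% among the 9922 peaks that scored 100 or more.

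Peaks in joined domains had lower scores than single ones at almost the same width. Their median score was 164 (exact binomial 95% interval 159 to 168), against 302 for single peaks (291 to 311), and 29.7% of them were under 100, against 17.2%. Their median width was 1511 bp (1472 to 1544 bp), against 1534 bp (1500 to 1569 bp). In the 2145 pairs the higher score had a median of 287 and the lower one of 103, a gap that follows in part from the sorting. In domains of 3 peaks or more, the 866 inner peaks had a median score of 141 and a median width of 1749 bp, and the 1294 outer ones 150 and 1553 bp. These are all peaks of 1 list, so the differences are descriptions and were not tested.

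**Figure D4:**
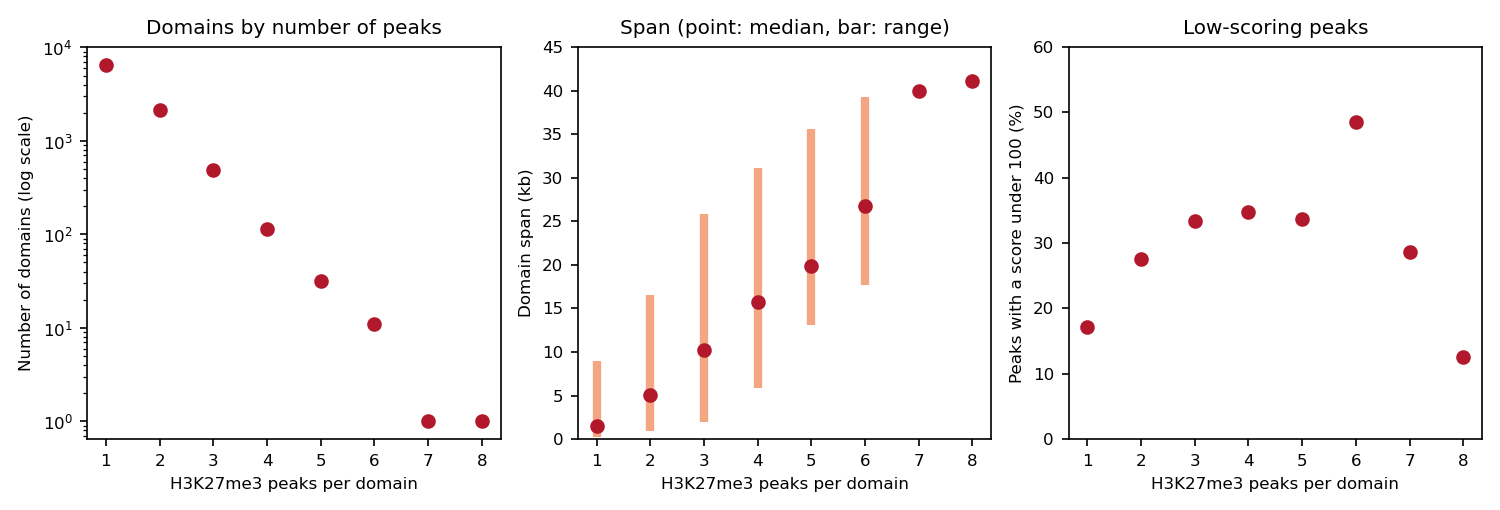
H3K27me3 domains by their number of peaks: the number of domains (log scale), their span (kb, point for the median and bar for the range) and the share of their peaks with a score under 100 (%). Domain number falls from 6509 single peaks to 1 domain of 8 peaks; the shares at 7 and 8 peaks rest on 1 domain each.

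The 45 domains of 5 peaks or more were spread over all 12 chromosomes, with 7 on chromosome 11, 6 on chromosome 9 and between 2 and 4 on each of the others. They fell into 43 different bins, and no bin held more than 2. Their median span was 21048 bp, of which 52.2% over all 45 lay in peaks. When peaks under 100 were left out, 7 such domains remained, and at a joining distance of 2 kb there were 0.

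The largest domain by span and by number of peaks lay on chromosome 10 from 21658115 to 21699164, with 8 peaks over 41050 bp. Its peaks were 3735, 2615, 5897, 1344, 1251, 946, 2486 and 2781 bp wide along the chromosome, and their scores were 130, 172, 239, 88.9, 183, 171, 792 and 403. The 2 highest scores thus stood at one end and 51.3% of the span lay in peaks. Next came chromosome 3 from 7938531 to 7978501, with 7 peaks over 39971 bp and scores between 57.2 and 944; here the first peak had the highest score, and the widest peak, of 7714 bp, had a score of 84.5. On chromosome 11 from 8575451 to 8614714, 6 peaks spanned 39264 bp and 2 of them had scores of 695 and 698. At a score of at least 100 this place on chromosome 11 became the largest domain, with 5 peaks over 36468 bp.

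The remaining domains among the 10 of largest span differed in make-up. On chromosome 9 there were 3, from 18023708 to 18059330 (5 peaks, 35623 bp), from 6185855 to 6217459 (6 peaks, 31605 bp) and from 19160295 to 19191227 (6 peaks, 30933 bp). In the first of these 75.9% of the span lay in peaks but no score was above 176, and in the next one 5 of the 6 peaks were under 100. The domain on chromosome 12 from 23979554 to 24010698 was nearly as filled, with 75.3% in 4 peaks over 31145 bp, and had the highest score of all 10 domains (1002). Chromosome 6 from 27834555 to 27865513 held 5 peaks over 30959 bp, chromosome 2 from 21360544 to 21391077 held 6 over 30534 bp and chromosome 1 from 8124964 to 8154839 held 6 over 29876 bp. The domain on chromosome 2 combined 4 peaks under 100 with 1 of 977. Of the 59 peaks in the 10 domains, 23 were under 100. Which domain was the largest depended on the joining distance. It was on chromosome 1 from 32099113 to 32118677 at 2 kb (19565 bp, 3 peaks) and on chromosome 3 from 24222791 to 24308380 at 10 kb (85590 bp, 12 peaks).

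**Figure D5:**
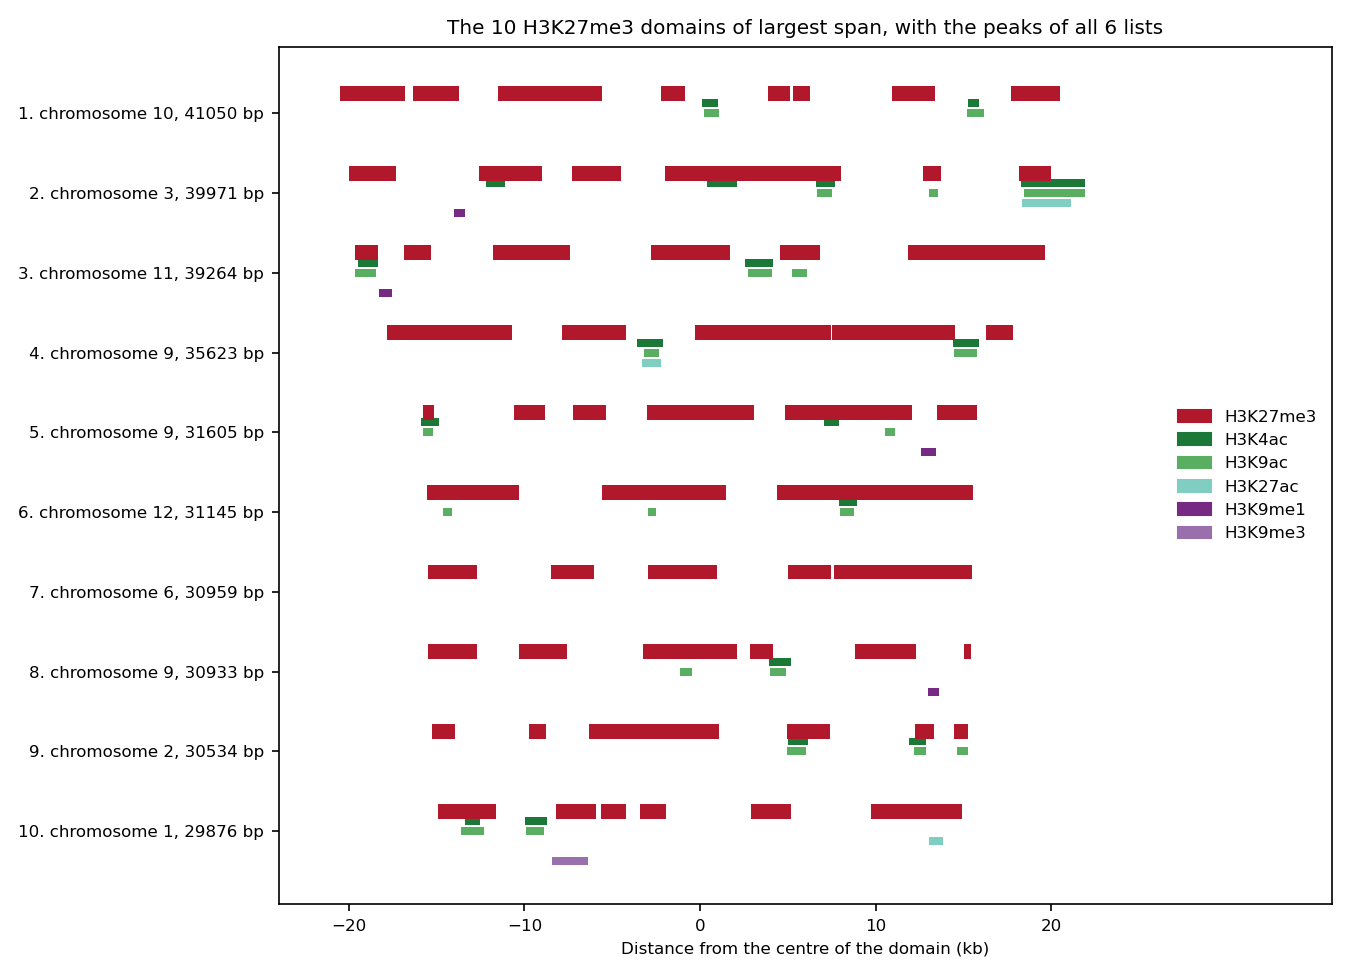
The 10 H3K27me3 domains of largest span, 1 row each, with the peaks of the 6 lists drawn to scale against the distance from the centre of the domain (kb). H3K4ac and H3K9ac peaks appear in 9 of the 10 rows, and the row of chromosome 6 holds H3K27me3 peaks alone; H3K27me3 peaks less than 200 bp apart look joined.

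Acetylation peaks were no denser in the largest domains than over the chromosomes. Of the 10 domains, 9 had an H3K4ac peak and 9 an H3K9ac peak. Their 18 H3K4ac peaks came to 52.8 per Mb, against 68.1 over all chromosomes, and their 22 H3K9ac peaks to 64.5 per Mb, against 71.5. H3K27ac was present in 3, H3K9me1 in 4 and H3K9me3 in 1. Per Mb of the 10 domains this came to 8.80 H3K27ac, 11.7 H3K9me1 and 2.93 H3K9me3 peaks, against 24.9, 13.4 and 7.93 over all chromosomes. The domain on chromosome 6 had no peak of any other list. Inside the joined domains, acetylation peaks covered a smaller share of the gaps between H3K27me3 peaks than of the chromosomes outside. H3K4ac covered 9.78% of the base pairs of the H3K27me3 peaks in joined domains and 4.46% of the gaps, against 8.83% of the 340 Mb outside any H3K27me3 domain. For H3K9ac the shares were 9.37% and 3.06%, against 6.86%, and for H3K27ac 2.68% and 1.07%, against 2.86%. H3K9me1 covered 1.09% and 1.35%, against 1.04%, and H3K9me3 1.39% and 1.63%, against 2.30%. In the gaps of the 45 domains of 5 peaks or more, coverage was 0.509 times that outside for H3K4ac, 0.461 times for H3K9ac, 0.299 times for H3K27ac, 1.51 times for H3K9me1 and 0.662 times for H3K9me3. Those gaps came to only 0.502 Mb, so the ratios of the sparser marks rest on little covered length. The H3K27me3 peaks of the same domains were covered to 9.34% by H3K4ac, 9.30% by H3K9ac, 1.87% by H3K27ac, 0.250% by H3K9me1 and 1.51% by H3K9me3. With peaks under 100 left out of every list, the ratios rose to 0.735 for H3K4ac and 0.683 for H3K9ac. Those for H3K27ac, H3K9me1 and H3K9me3 were 0. That cut left 7 such domains. It also left only 35.3% of the H3K27ac peaks, 17.6% of the H3K9me1 peaks and 5.04% of the H3K9me3 peaks, so these zeros say little about the full lists. Single H3K27me3 peaks carried somewhat more H3K4ac (11.6%) and H3K9ac (10.6%) than the peaks of joined domains. The gaps are bounded by H3K27me3 peaks and shorter than 5 kb by construction, and the part of that in the low shares was not tested.

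Few of the gaps inside joined domains held the midpoint of an H3K4ac peak, and few held that of an H3K9ac peak. The midpoint of an H3K4ac peak lay in 210 of the 3658 gaps under 5 kb (5.74%, 95% Wilson interval 5.03 to 6.54%, counting error only) and that of an H3K9ac peak in 203 (5.55%, 4.85 to 6.34%). Per Mb of gap this came to 28.0 and 27.1 gaps with a midpoint, against 68.1 H3K4ac and 71.5 H3K9ac peaks per Mb over all chromosomes. For H3K9me1 the numbers were 14.0 gaps with a midpoint per Mb of gap and 13.4 peaks per Mb over all chromosomes. A gap counts once even with several peaks, which lowers the values per Mb. The shortest gaps have little room for a peak, which lowers the share of gaps with a midpoint. H3K9ac midpoints lay in 0.808% of the gaps under 1 kb, in 10.4% of those of 2 to 5 kb and in 30.7% of those of 5 to 10 kb. Per Mb of gap these came to 23.7, 29.1 and 42.2, with 14.3 for gaps of 1 to 2 kb. For H3K4ac the values per Mb were 49.5 under 1 kb, 16.7 at 1 to 2 kb, 28.0 at 2 to 5 kb and 39.9 at 5 to 10 kb.

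Set beside the other lists, the gaps of H3K27me3 were more unequal. The upper quartile of the gap length was 7.90 times the lower one for H3K27me3, against values between 3.58 for H3K9ac and 5.34 for H3K9me3. Gaps under 1 kb made up 10.5% for H3K27me3, against 5.36% for H3K9ac, 4.16% for H3K4ac and between 0.204% and 2.77% for the other marks. Of the gaps under 5 kb, however, those under 1 kb made up 37.2% for H3K27me3 and 38.4% for H3K9me1. For the other marks that share was between 5.31% (H3K9me3) and 18.3% (H3K9ac). The share of peaks in joined domains was 49.8% for H3K27me3, with 50.1% for H3K9ac and 49.7% for H3K4ac, whose lists are denser, and 17.5% for H3K27ac, 13.6% for H3K9me1 and 7.23% for H3K9me3. A denser list has more peaks within 5 kb by its number alone. The H3K4ac and H3K9ac lists were also limited to their 12959 highest-scoring peaks, a setting chosen after seeing the data. The shares were then 21.5% for H3K4ac and 20.3% for H3K9ac. The limited lists hold no peaks with scores under 155 and 136, whereas the H3K27me3 list starts at 50.0. Leaving out low-scoring peaks lowers the share in itself, so no ranking is drawn from this cut of only some lists. With peaks under 100 left out of every list, the shares were 33.7% for H3K27me3 (9922 peaks), 34.4% for H3K4ac (17778 peaks) and 30.6% for H3K9ac (16954 peaks). With the 2959 highest-scoring peaks of every list, the share was 6.69% for H3K27me3, against 3.28% for H3K4ac, 3.18% for H3K9ac, 4.46% for H3K27ac, 8.01% for H3K9me1 and 7.23% for H3K9me3. This cut kept the whole H3K9me3 list but only the highest-scoring peaks of the other lists, so no ranking is drawn from it either. None of these differences was tested, as each mark had 1 library.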

How the data were processed

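Chromatin of 2-week-old plants was immunoprecipitated and sequenced, with 1 library for each of 6 histone modifications. The authors deposited for each library a list of peaks with start, end and a score; the submitters' processing notes name Bowtie, and the peak names MACS 1.4. The study's methods name a rice genome release for its gene annotation and expression data; for these peak lists the build, the aligner settings, any control library and the depth are not given in the sources used here. Starts are counted from 0 in the lists and from 1 in the text.

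Gaps, domains (peaks less than 5 kb apart) and bins of 500 kb were computed with Python 3.11.15, numpy 2.4.6, pandas 2.3.3 and scipy 1.17.1, and figures with matplotlib 3.10.9; the code was tested on simulated lists. Chromosome lengths are the last peak end of any list. Peaks were assigned to bins by their midpoint and covered length by base, and the 12 incomplete end bins were left out. Intervals of shares (Wilson) account for counting error alone, and those of medians come from order statistics (exact binomial). All treat their units as independent, which peaks of the same domain are not.

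The members, the joining distance and the bin size were chosen with earlier results of these data known. Named regions followed a fixed rule: the 10 domains of largest span, the 5 with most peaks, the 5 bins of highest and of lowest covered length, the longest run of low bins per chromosome, and the 5 widest and 5 highest-scoring peaks. The bin with most peaks, the longest gaps and the segments of chromosomes were named after their values were seen. No gene is named and no sequence is shown, because the gene table at hand belongs to another assembly. Alternatives were a score of at least 100, merging of peaks closer than 200 bp, joining distances of 2 and 10 kb, bins of 250 and 1000 kb, and equal numbers of highest-scoring peaks.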

Additional observations from a re-analysis of the deposited data

How the results depend on the processing

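Counts, lengths, spans and ratios were taken as moved beyond 1.5 times, medians and shares outside their 95% interval, and rho beyond 0.1. No paired analysis was possible because each mark has 1 library, and for the same reason no library was left out. The number of H3K27me3 peaks (9922 to 12381), their covered length (22.2 to 25.9 Mb), the number of domains (7323 to 11029) and each rho stayed within these limits under every alternative run for them. Stricter scores and shorter joining distances leave fewer peaks to join by construction; for the rest, the cause was not tested. Because the depth is unknown, peak numbers of different marks cannot be set against their reads.

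At a score of at least 100 the median width was 1773 bp, the median covered length per bin 28.8 kb, the share of peaks in joined domains 33.7%, their median span 7133 bp and the median gap 18965 bp. With merged peaks these were 1607 bp for the width, 44.1% for the share, 6922 bp for the span and 14083 bp for the gap. At a joining distance of 2 kb the share was 28.7%, the median span 3687 bp and the largest span 19565 bp; at 10 kb they were 68.1%, 10484 bp and 85590 bp. With the 2959 highest-scoring peaks the share was 6.69% and the median gap 75813 bp. Bins without a peak made up 1.82% at 250 kb and 0% at 1000 kb, and the median covered length, scaled to 500 kb, was 31.7 kb in bins of 250 kb.

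The share of peaks in joined domains of the other marks also moved. For H3K4ac, H3K9ac, H3K27ac, H3K9me1 and H3K9me3 in this order, it was 34.4, 30.6, 5.08, 3.75 and 4.70% at a score of at least 100, 17.6, 19.5, 5.01, 7.74 and 1.82% at 2 kb, and 80.4, 81.2, 42.3, 25.6 and 15.8% at 10 kb. Merging gave 48.6% for H3K4ac, 48.0% for H3K9ac and 11.8% for H3K9me1. With the 2959 highest-scoring peaks it was 3.28, 3.18, 4.46 and 8.01% for the first 4 marks, and with 12959 peaks, an alternative added after seeing the data, 21.5% for H3K4ac and 20.3% for H3K9ac.

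The coverage of the gaps in domains of 5 peaks or more was taken as a ratio to that outside domains. At a score of at least 100 in every list it fell to 0 for H3K27ac, H3K9me1 and H3K9me3. There 7 such domains were left, and these lists kept 3286, 879 and 149 peaks. At 10 kb it was 0.558 for H3K27ac and 1.07 for H3K9me3, and at 2 kb it could not be computed because there were 0 such domains.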
